A study of Caenorhabditis elegans with 2 samples.

Results

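Genes for the Rab, Arf and Arl GTPases, the VPS proteins and epsin were examined in a chromatin immunoprecipitation sequencing (ChIP-seq) study of the zinc-finger protein LIR-1 in whole Caenorhabditis elegans. The members were all protein-coding genes of Ensembl WBcel235 whose name begins with rab-, arf-, arl-, vps- or epn- and a digit. There were 61 of them among 19973 nuclear protein-coding genes, made up of 20 rab, 9 arf or arl, 31 vps and 1 epn gene. The rule uses names only, but it was proposed with earlier results of these data known. Both libraries, biological replicates 1 and 2, came from strain RW12318, which per the labels carries st12318(TY1::EGFP::3xFLAG::lir-1] II), a tag placed in lir-1 itself by CRISPR. The animals were young adults, 63 hours old, synchronised as starved first-stage larvae after bleaching, and the antibody was against GFP. Both libraries carried the tag, untagged animals were not analysed here, and the control alignment named by the manifests was not used here, so sites mark reproducible precipitation and not proven binding. Whole animals were used, so strong precipitation in few cells and weak precipitation in many cannot be told apart.

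Membrane traffic moves proteins and lipids between organelles in vesicles. Rab and Arf family GTPases switch between an active, membrane-bound form and an inactive form, and each marks particular organelles: RAB-5 marks early endosomes and RAB-7 late endosomes and lysosomes. Tethers such as HOPS and GARP hold incoming vesicles at their target, the ESCRT complexes bud vesicles into the endosome, and epsins help clathrin coats form at the plasma membrane.

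Of the 61 members, 9 (14.8%, exact binomial 95% interval 6.98 to 26.2) had a site, meaning a summit of the conservative peak set from 1000 bp upstream to 200 bp downstream of the gene's 5′ end. Among all protein-coding genes 883 of 19973 (4.42%) had one. The 9 genes were epn-1, rab-7, rab-18, vps-32.1, rab-5, vps-4, vps-51, vps-39 and vps-60, in order of signal, the height that the authors' peak caller gave. By role they were 1 epsin, 3 of 20 Rab GTPases, 3 of 6 ESCRT-III and VPS-4 genes, 1 of 8 HOPS and CORVET genes and 1 of 5 genes of the GARP group. None of 9 Arf and Arl genes, 5 ESCRT-I and II genes or 3 retromer genes had one. A group of this size with no site leaves wide limits: the interval for the 9 Arf and Arl genes reached 33.6%.

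The sequences below are those at the 6 sites on chromosomes II, III, V and X. GCGCG, chosen after the sequences had been seen, was in 5 of them and absent from the other, that of vps-32.1. Each is a stretch of the ce11 assembly, read from the RefSeq genome of the same build, 5′ to 3′ on the strand of the named gene. It reaches 50 bases to either side of the summit, except at rab-18, whose summit lies in an annotated 5′ UTR and whose run, of the same length, stops at the base just upstream of the gene. Capitals mark GCGCG on either strand (CGCGC on the other) and, at vps-60, also GCGTCTC on either strand.
epn-1 (chrX:14818918-14819018, minus strand): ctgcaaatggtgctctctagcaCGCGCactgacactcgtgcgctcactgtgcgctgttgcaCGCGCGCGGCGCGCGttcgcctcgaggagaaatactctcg
rab-7 (chrII:11967656-11967756, minus strand): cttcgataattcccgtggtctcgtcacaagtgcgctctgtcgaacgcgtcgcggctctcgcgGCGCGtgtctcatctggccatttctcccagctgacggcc
rab-18 (chrIII:1080776-1080876, minus strand): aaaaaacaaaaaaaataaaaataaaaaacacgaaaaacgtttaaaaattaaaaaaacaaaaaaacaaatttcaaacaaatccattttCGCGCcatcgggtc
vps-32.1 (chrII:6588995-6589095, plus strand): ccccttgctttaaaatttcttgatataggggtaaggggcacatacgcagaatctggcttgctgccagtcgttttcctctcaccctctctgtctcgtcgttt
vps-39 (chrV:14038847-14038947, minus strand): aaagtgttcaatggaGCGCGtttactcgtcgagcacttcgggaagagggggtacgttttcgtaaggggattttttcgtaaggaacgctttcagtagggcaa
vps-60 (chrV:8606413-8606513, minus strand): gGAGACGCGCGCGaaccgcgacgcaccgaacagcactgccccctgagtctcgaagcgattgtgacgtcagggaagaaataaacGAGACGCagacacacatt
The 8 motifs searched, on both strands and with overlaps allowed, were TATAAA (the TATA box), GAGAGA (a purine repeat), CACGTG (an E-box), TGATAA (for factors of the GATA type), GGCGGG (the GC box), GCGTCTC (with no factor assigned here), GGTTCGA (part of the internal promoter of tRNA genes) and GCGCG, the last chosen after the sequences had been seen. In windows of 50 bases to either side of the summits, GCGCG was in 8 of the 9 member sites, all but vps-32.1, and in 257 of 655 other promoter sites (39.2%). It was in 390 of all 1209 sites (32.3%), in 1 of 18 windows centred 500 bp to either side of the member sites, and in 5.85% of windows centred 200 bp upstream of all protein-coding genes. The member windows held a median of 9 CpG dinucleotides, ranging from 4 at vps-32.1 to 15 at epn-1, against a median of 8 at other promoter sites, 4 in the windows beside the member sites and 3 upstream of all protein-coding genes. Of the other motifs, TATAAA was in 1 member window, that of rab-5, against 4.12% of other promoter sites, 3.97% of all sites and 13.1% of windows upstream of all protein-coding genes. GCGTCTC was in 1, that of vps-60, against 1.46% upstream of all protein-coding genes and 9.76% of all sites. The other 5 were in none of the 9, and a motif in 0 of 9 windows has an interval up to 33.6%. Over all sites GAGAGA stood at 20.3%, CACGTG at 5.54%, TGATAA at 4.55%, GGCGGG at 6.87% and GGTTCGA at 5.79%. Upstream of all protein-coding genes the same 5 stood at 7.47%, 1.53%, 11.0%, 2.18% and 0.461% of windows.

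The endocytic adaptor gene epn-1 had by far the strongest member site. Its peak on X (14818804 to 14819104, ce11) had a summit 454 bp upstream of the gene and a signal of 364.9, the 6th highest of the 1209 sites. In the replicates' own ranked lists it stood at 179.1 and 160.6 in replicates 1 and 2 (169.8 ± 13.1, SD, n = 2), at ranks 9 and 7. Both replicates thus placed it near the top of their lists. The summit lay in no annotated gene, 13 bp from the 5′ end of the noncoding RNA gene T04C10.8, and the windows of T04C10.7 and T04C10.9 held it too, while epn-1 was the nearest protein-coding gene. A second, weaker site lay inside epn-1, 1625 bp downstream of its 5′ end, with a signal of 66.0.

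Among Rab genes the sites were at rab-7, rab-18 and rab-5. The rab-7 site (II, 11967566 to 11967845, signal 171.8) had 87.4 in replicate 1 and 80.6 in replicate 2 (84.0 ± 4.82, n = 2). Its summit lay 775 bp upstream of rab-7 but only 162 bp upstream of W03C9.5, the next gene on the same strand, and 931 bp upstream of mex-1, an embryonic RNA-binding protein gene on the other strand. The site was therefore in the windows of 3 protein-coding genes, and rab-7 was not the nearest of them. The rab-18 site (III, 1080634 to 1080913, signal 148.8) had 69.9 in replicate 1 and 77.2 in replicate 2 (73.6 ± 5.16, n = 2). RAB-18 is known in mammals from lipid droplets and the endoplasmic reticulum. This summit was 1 bp inside the gene, the closest of all 9 to a member's 5′ end, and lay 127 bp upstream of kbp-4, a kinetochore gene, and 627 bp upstream of par-2, a gene of embryonic polarity, both on the other strand. The rab-5 site (I, 9307534 to 9307813, signal 132.3) had 72.0 in replicate 1 and 48.2 in replicate 2 (60.1 ± 16.8, n = 2), a wider spread than at the other Rab sites. It lay 768 bp upstream of rab-5 and 830 bp upstream of nmat-2 on the other strand, in no annotated gene. The early and late endosome GTPases rab-5 and rab-7 thus both had sites, each over 500 bp from the gene.

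Among ESCRT-III genes, vps-32.1 encodes the main subunit of the membrane-bending filament, VPS-4 is the ATPase that takes the filament apart, and VPS-60 is a related subunit. The vps-32.1 site (II, 6588905 to 6589184, signal 142.4) had 74.1 in replicate 1 and 57.3 in replicate 2 (65.7 ± 11.9, n = 2). Its summit lay inside the noncoding RNA genes C56C10.14 and C56C10.15, 663 bp upstream of vps-32.1 and 390 bp upstream of icd-1, a nascent-chain complex gene on the other strand, so icd-1 was the nearest coding gene. The vps-4 site (I, 1066995 to 1067274, signal 131.4) had 68.8 in replicate 1 and 63.9 in replicate 2 (66.3 ± 3.44, n = 2), 236 bp upstream. The vps-60 site (V, 8606323 to 8606602, signal 78.3) had 45.1 in replicate 1 and 34.7 in replicate 2 (39.9 ± 7.31, n = 2), 335 bp upstream. The vps-4 and vps-60 sites were in no other gene's window. The remaining ESCRT-III members had only peaks below the threshold, with signals of 39.1 at vps-20, 26.03 at vps-2 and 20.8 at vps-24.

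The tether genes with a site were vps-51 and vps-39. VPS-51 is a subunit of GARP, which receives vesicles at the Golgi. Its site (I, 5807399 to 5807678, signal 121.2) had 73.0 in replicate 1 and 40.9 in replicate 2, the widest spread of the 9 (56.97 ± 22.7, n = 2). The summit lay between 2 genes that point away from each other, 248 bp upstream of vps-51 and 170 bp upstream of lin-35, the worm Rb gene. VPS-39 is a HOPS subunit, which acts with RAB-7 in fusion with lysosomes. Its site (V, 14038757 to 14039036, signal 103.6) had 52.5 in replicate 1 and 50.2 in replicate 2 (51.3 ± 1.59, n = 2), the narrowest spread. That summit was 519 bp upstream of vps-39, inside a pseudogene, and in no other gene's window.

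**Figure D1:**
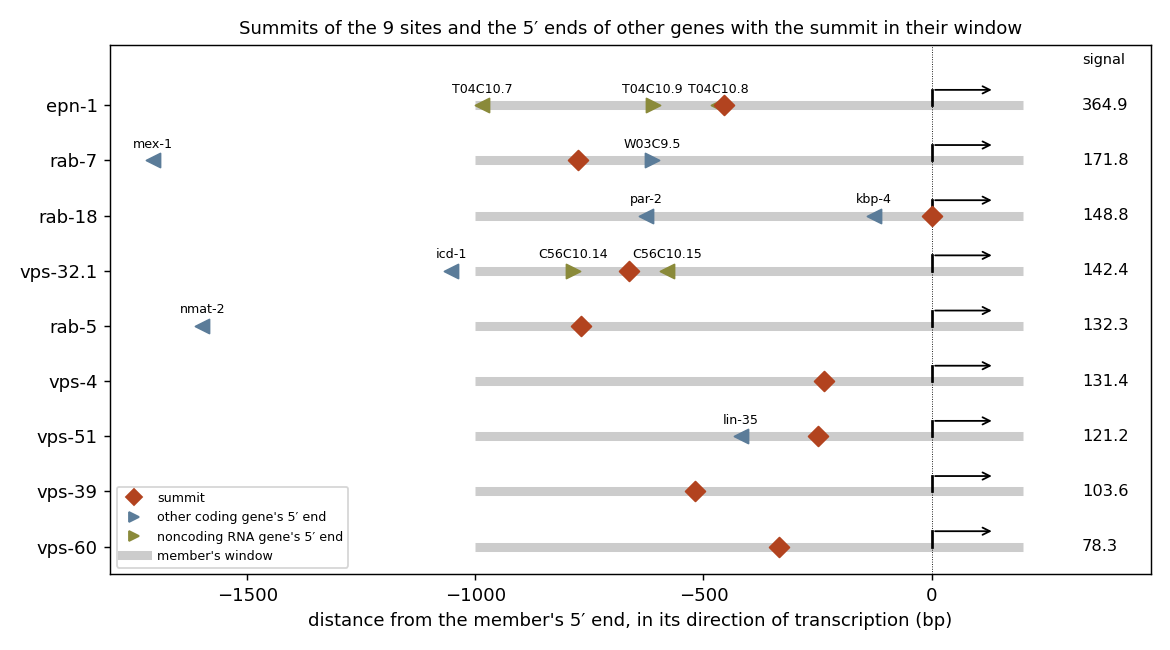
Each row is 1 of the 9 member sites, strongest at the top; the x axis is the distance in bp from the member's 5′ end (dotted line), diamonds are summits, triangles are 5′ ends of other genes whose window holds the same summit and point the way those genes are read. In 5 of the 9 rows another protein-coding gene shares the summit, and in 3 (vps-4, vps-39 and vps-60) no other gene does.

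Placement among neighbours varied. In 8 of 9 cases the summit was upstream of the member, at a median of 454 bp, and 4 sites were over 500 bp away. The member was the nearest protein-coding gene at 6 sites and the nearest gene of any kind at 5; another protein-coding gene's window held the summit at 5. Members were then sorted by the next protein-coding gene upstream, a division made after the sites had been seen. With no such gene within 1000 bp, 6 of 16 members had a site (37.5%, exact binomial interval 15.2 to 64.6), where 2.92% of all protein-coding genes placed this way had one. With a divergent neighbour within 1000 bp it was 2 of 17 members, where all genes stood at 9.63%, and with a neighbour on the same strand 1 of 28, where all genes stood at 3.17%. For those 28 members the window can reach into or past the gene before them, and the 1 with a site was rab-7. Its gap to W03C9.5 was 0 bp, so that whole gene lay between the site and rab-7. The 6 with no neighbour within 1000 bp were not all lone promoters. At vps-32.1 and rab-5 a divergent gene lay 1052 and 1597 bp away, and its window held the summit too. At vps-4, vps-60 and vps-39 the divergent gene lay 1584, 1671 and 5995 bp away, and its window did not hold the summit. At epn-1 the next gene was on the same strand, 1394 bp away.

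Below the threshold, 33 further members had a ranked peak of any IDR in the window and 19 had none. IDR, the irreproducible discovery rate, is low where both libraries rank a peak near the top. A weak peak can have a high IDR though the libraries rank it alike. No site was above an IDR of 0.00997. In all, 42 of 61 members had a ranked peak, where 38.6% of protein-coding genes did. The strongest peak of each of the 33 had a median signal of 29.3, from 4.39 at vps-53 to 66.0 at rab-11.1, against a median of 31.9 over the 6820 protein-coding genes that had a peak and no site. The median IDR of the 33 was 0.749 and 21 of them were above 0.5, so most of these peaks were far from the threshold. IDR was not summarised over the 6820 genes, so these 2 values have no such comparison. The member just inside the threshold was vps-60, at 78.3 with an IDR of 0.00181, and the one just outside was rab-11.1, at 66.0 with an IDR of 0.0140. At rab-11.1, a GTPase of recycling endosomes, the peak lay 670 bp upstream on the side of the divergent gene rpl-7, with 40.9 in replicate 1 and 27.5 in replicate 2 (34.2 ± 9.49, n = 2). Its paralog rab-11.2 had no ranked peak.

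The next strongest peaks below the threshold were at 2 genes of one kinase, at ESCRT genes and at other Rab genes. rab-14, of the Golgi and endosomes, had 59.0 at 399 bp upstream with an IDR of 0.109 (20.5 in replicate 1 and 36.3 in replicate 2), and a site with a signal of 120.3 lay just beyond its window, 1028 bp upstream. The genes of the lipid kinase VPS-34 and its partner VPS-15, which make the phosphoinositide of early endosomes, had 47.8 (IDR 0.315) and 49.4 (IDR 0.104). The ESCRT-II gene vps-36 had 47.6 (IDR 0.123) and the ESCRT-I gene vps-37 had 43.9 (IDR 0.141). The retromer gene vps-35 had 44.0 (IDR 0.193) and the GARP gene vps-54 had 42.5 (IDR 0.310). The Rab genes rab-21 and rab-39 had 42.7 (IDR 0.533) and 41.2 (IDR 0.486), and rab-21 had no peak in replicate 2's ranked list there. These 10 peaks, rab-11.1 included, had replicate signals between 15.9 and 40.9, while the 9 sites had between 34.7 and 179.1. The ranges overlapped: vps-60 in replicate 2, at 34.7, was below rab-11.1 in replicate 1, at 40.9, and rab-14 in replicate 2, at 36.3.

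Members without any ranked peak were spread over the roles. They were 5 of 9 Arf and Arl genes (arf-6, arl-1, arl-5, arl-6 and arl-8) and 6 of 20 Rab genes, among them rab-3 of synaptic vesicles, rab-11.2, rab-28, rab-30 and rab-35. With a ranked peak were thus 4 of 9 Arf and Arl genes and 14 of 20 Rab genes, where 38.6% of all protein-coding genes had one. HOPS and CORVET genes were split: vps-39 had a site, vps-41, vps-18 and vps-16 had peaks of 29.3, 24.7 and 23.2, all with an IDR of 0.866, and vps-8, vps-11, vps-33.1 and vps-33.2 had none. The GARP group genes vps-50 and vps-52, the retromer gene vps-26 and vps-13 had none either. Every ESCRT gene among the members had at least 1 ranked peak. The strongest Arf and Arl peaks were 35.9 at arl-13, a gene of cilia, and 34.98 at arf-1, with IDR of 0.416 and 0.518.

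**Figure D2:**
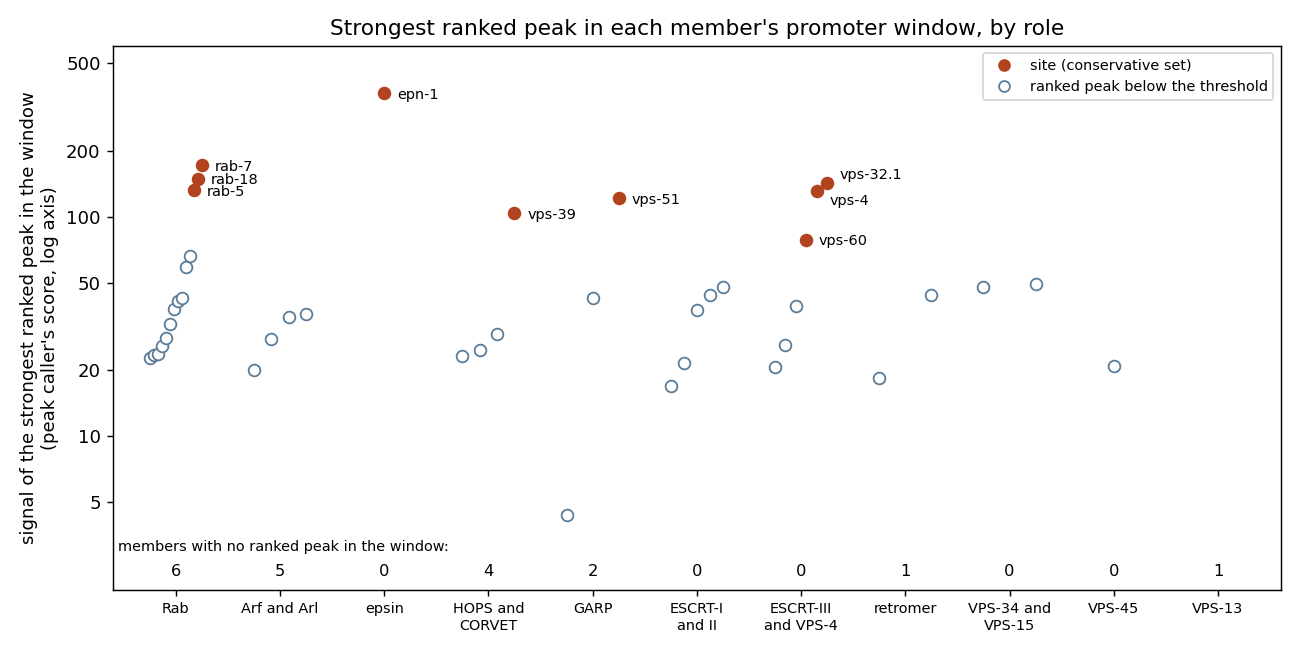
The y axis (log) is the signal of the strongest ranked peak in each member's window, by role on the x axis; filled circles are sites, open circles are peaks below the threshold, and the digits at the bottom count members without a ranked peak. All 9 sites are at 78.3 or higher and all open circles at 66.0 or lower. This gap is not a signal cut: over all protein-coding genes, strongest peaks without a site reached 107.3. Sites in promoter windows went down to 3.87.

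The 9 signals spanned 78.3 to 364.9, and their median was 132.3, beside a median of 92.5 over the 664 sites in protein-coding promoters. Of the 9, 8 were above that median and vps-60 was below it. All 9 overlapped peaks of the other series set. Replicate 1's own list held all 9 and replicate 2's own list held 7, without vps-51 and vps-60, so 7 of 9 lay in both lists, beside 36.4% of all sites. All sites had a lower median signal than the 9, 86.4, and no share was taken among sites of like signal. The signal was higher in replicate 1 at 8 of the 9 sites and higher in replicate 2 at rab-18 only; over all sites with a peak in both ranked lists, 52.96% were higher in replicate 1. The replicates' summits were 0 to 35 bp from that of the series peak.

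**Figure D3:**
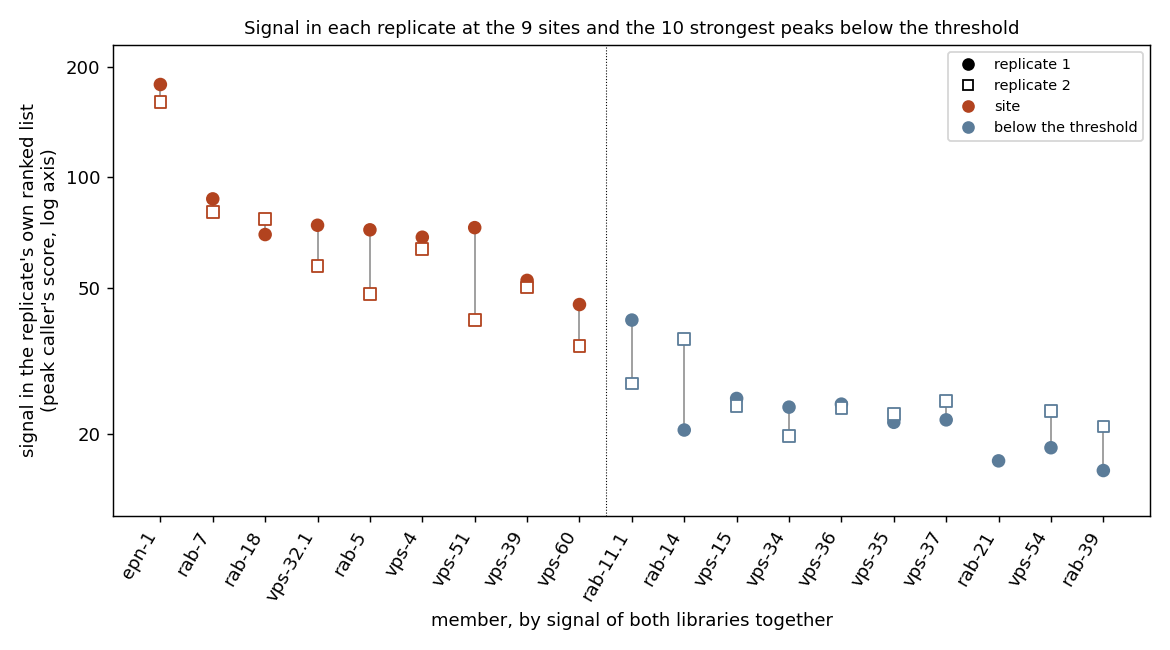
Circles and squares are the signal (log axis) in the ranked lists of replicates 1 and 2 at the 9 sites and at the 10 strongest peaks below the threshold, in order of the signal of both libraries together. At vps-51 the replicates are farthest apart (73.0 and 40.9), and at rab-21 only replicate 1 has a point.

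The way of counting changed which members had a site. With a window of 500 bp upstream to 100 bp downstream 5 members had a site (8.20%, where 3.45% of all protein-coding genes had one); rab-7, rab-5, vps-32.1 and vps-39 lay outside. Counting each summit only for the nearest protein-coding 5′ end left 6 members (9.84%, all genes 3.15%), without rab-7, vps-32.1 and vps-51. Counting it for the nearest 5′ end of any gene left 5 (8.20%, all genes 2.51%), also without epn-1. The other series set gave 9 members (all genes 4.14%), and counting from any annotated transcript 5′ end also gave 9 (all genes 4.75%). Replicate 2's own list gave 7 members (all genes 2.39%), replicate 1's own list 10 (all genes 3.5%), and the stronger 50% of sites 8, without vps-60 (all genes 2.71%). A looser IDR of 0.05 gave 10 members, with rab-11.1 (all genes 5.9%). A window of 2000 bp upstream and any overlap of the peak with the usual window each gave 10, with rab-14 (all genes 5.66% and 4.7%). Replicate 1's own list also called the ESCRT-II gene vps-22, by a peak 667 bp upstream with a signal of 44.7 that no ranked peak of replicate 2 or of both libraries together overlapped. Of the 9, rab-18 and vps-4 had a site under all 11 alternatives.

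**Figure D4:**
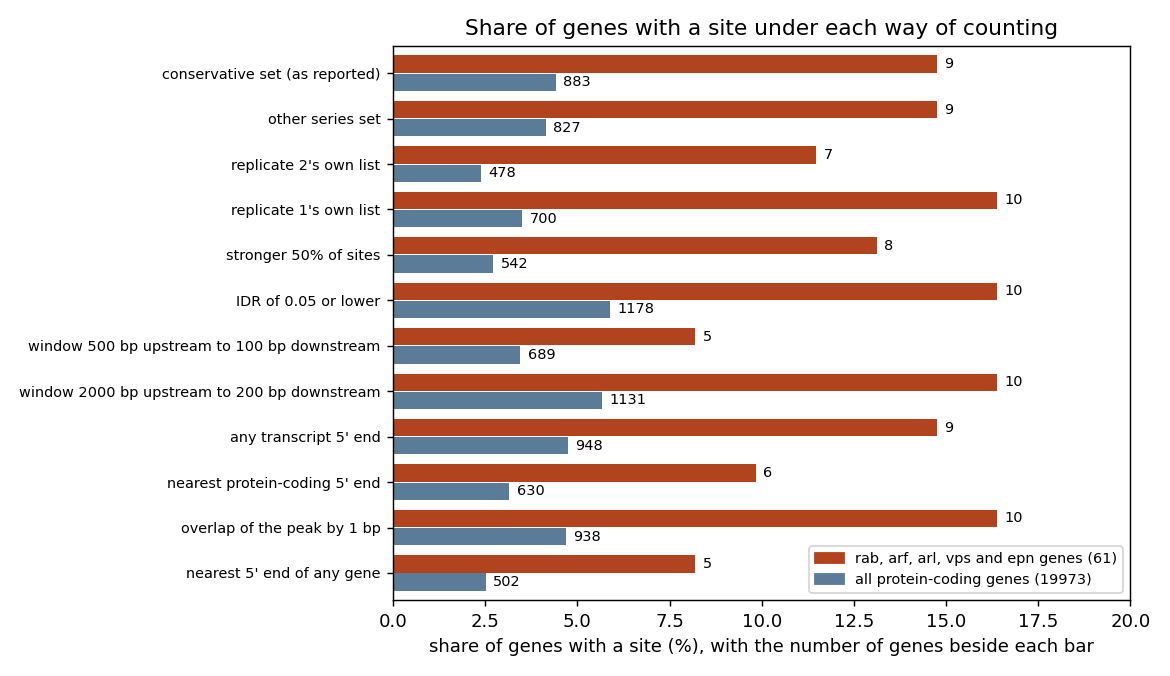
Bars give the share of genes with a site, in percent, for the 61 members (upper bar of each pair) and for all 19973 protein-coding genes (lower bar), with the number of genes beside each. The members' bar ranges from 8.20% to 16.4% and is the longer of the pair in all 12 rows.

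The same count was made for 6 lists of other traffic genes. Together 18 of 162 genes in them (11.1%) had a site, where all protein-coding genes stood at 4.42%. Replicate 1's own list gave 11 of the 162 (6.79%, all genes 3.5%) and replicate 2's own list 8 (4.94%, all genes 2.39%). The counts of some lists fell from those in the conservative set. Rab and Arf regulators had 3 in replicate 1's own list and 2 in replicate 2's, in place of 5. Coats and adaptors had 1 in each, in place of 4. V-ATPase genes had 2 in replicate 1's and 0 in replicate 2's, in place of 3. Others moved little or not at all: tethers had 3 in each, endocytosis and endosome factors 2 in each, and SNARE and fusion genes 0 in each. In the conservative set, Rab and Arf regulators and Rab-like GTPases under other names had 5 of 35: ccz-1, whose product with SAND-1 activates RAB-7 (signal 128.3, 137 bp upstream), sar-1, the GTPase of COPII coats (98.7), unc-108, the worm RAB-2 (97.4), rbg-3 (70.2) and tbc-14 (68.0). The strongest 4 of these are named by rule and tbc-14 was added after its value was seen. Exocyst, COG and TRAPP tethers had 4 of 25, with sec-15 (125.8), cogc-2 (116.6), exoc-7 (86.8) and sec-3 (70.3). Coats and adaptors had 4 of 27, all but 1 of them clathrin adaptor genes: dpy-23 (107.7), apb-1 (90.7), unc-101 (63.0) and, of the COPII coat, sec-24.1 (69.4). V-ATPase genes, for the pump that acidifies endosomes, had 3 of 20, with vha-18 (92.7), vha-12 (88.5) and vha-13 (83.0). Endocytosis and endosome factors had 2 of 25, snx-13 (126.6) and rme-2, the yolk receptor gene (115.7). SNARE and fusion genes had 0 of 30, with an interval up to 11.6%, and their strongest ranked peak was 60.9 at nsf-1, with an IDR of 0.290, named after its value was seen. None of the 18 sites was as strong as the sites of epn-1, rab-7, rab-18, vps-32.1, rab-5 or vps-4.

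Several members had further sites near the gene but outside the window. Within 5000 bp upstream these were at rab-14 (1028 and 2170 bp, signals 120.3 and 68.8), vps-36 (4994 bp, 115.9), vps-4 (1564 bp, 112.2), rab-7 (1509 bp, 101.7), vps-54 (2723 bp, 89.0), arl-8 (4021 bp, 78.2) and vps-32.1 (2073 bp, 73.7). The strongest of them, at rab-14, was nearly as strong as the vps-51 site and overlapped the edge of the window. The same search was not made for all protein-coding genes, so no share stands beside these sites. Divergent genes began 1333 bp from rab-14 (nipi-3), 1584 bp from vps-4 (gsa-1) and 1052 bp from vps-32.1 (icd-1). The 5′ ends of these divergent genes were nearer to the upstream sites just listed than those of the members.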

How the data were processed

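DNA precipitated with tagged LIR-1 was measured in 2 libraries of young adult animals. The authors deposited peak lists on ce11, per the labels, called on each library and on both together. As to aligner and caller, neither name was given in the sources used here, and without read totals the depth is unknown. The peak height is a score that the authors' caller wrote, called signal. Deposited ranked lists also hold −log10 of the global IDR, converted here to IDR. Scores served to describe and rank peaks within a list.

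Members were found by name in Ensembl release 115 (WBcel235, the ce11 assembly). Summits, 1-based, were assigned to windows with pandas 2.3.3 in Python 3.11.15. A replicate's value is the strongest peak of its ranked list that overlaps the site by 1 bp or more. Placement was tested on simulated data. With 1 group no test between groups was run; counts stand beside those of all protein-coding genes, and intervals are exact binomial (Clopper-Pearson) from scipy 1.17.1, which treat genes as independent. Nothing in the labels beyond the words biological replicate says how the replicates were separated, so their SD may be partly technical. Members, lists and motifs were chosen with earlier results of these data known. Named are all members with a site under any way of counting, the 10 strongest below the threshold, up to 5 per role without a peak, and up to 4 per list. In the SNARE list 2 names had no match. A further gene list is not reported here. Alternatives were other peak sets, single replicates, other thresholds, windows, 5′ ends and overlap rules.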

Additional observations from a re-analysis of the deposited data

How the results depend on the processing

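No paired analysis was possible because there is 1 group. With 1 replicate left out, members with a site numbered 7 to 10, all protein-coding genes 478 to 700, vps genes 3 to 6 in place of 5 and the 6 lists together 8 to 11 in place of 18. The median signal of the 9 sites was 57.3 in replicate 2 and 72.02 in replicate 1, whose scores are not set against that of both libraries. With the 500 bp window 5 members, 1 rab and 3 vps genes, had a site. Counted by the nearest protein-coding 5′ end vps genes numbered 3; by the nearest 5′ end of any gene, members numbered 5, vps genes 3, epn-1 0, all protein-coding genes 502 and the lists 12. Among the stronger 50% of sites all genes numbered 542 and the lists 12. In the other ranked list 27 members had a peak, in place of 42. All protein-coding genes were not counted in that list, so the fall cannot be set beside theirs. In windows of 30 bases to either side of the summit, TATAAA and GCGTCTC were each in 0% of member sites, and GCGCG in 55.6% in place of 88.9%, against 27.8% of other promoter sites in place of 39.2%. A smaller window, a stricter cut of the same sites or 1 gene a summit can only lower or keep these counts. The lists of single replicates and the other ranked list are separate peak lists, so their counts could go either way. Replicate 1's own list gave 10 members in place of 9, but 700 of all protein-coding genes in place of 883. Depth is unknown, so a member without a peak may lie below detection.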
